A study of Mus musculus with 7 samples.

Results

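The RNA of 9 genes of arginine and polyamine metabolism was examined in mouse granulocytes that lacked or carried Alox15. They are Arg1 and Arg2, the 2 arginases, Nos2, the inducible nitric oxide synthase, Slc7a2, a carrier of arginine, and Odc1, Oaz1, Srm, Sms and Sat1, which make, restrain and break down polyamines. Members were taken by symbol from the 51789 genes of the deposited table, with no use of their values, and all 9 were found there. A test of knockout against wild type was possible for 8 of them, since Slc7a2 had too few counts.

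Arginine that enters a cell by carriers such as the product of Slc7a2 is drawn on by competing enzymes. Nitric oxide synthase turns it into nitric oxide and citrulline, and arginase into urea and ornithine, from which ornithine decarboxylase makes putrescine and then spermidine and spermine follow. Myeloid cells with much arginase can deplete arginine around T cells, and Arg1 is for this reason a common readout of suppressive neutrophils and macrophages. In human cancer cells, induction of SAT1 was linked to ALOX15 and to ferroptosis, the cell death by lipid peroxidation that the title of the series concerns.

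The 3 knockout libraries came from granulocytes labelled knockout for Alox15, and the 4 wild-type libraries from granulocytes labelled wild type. All 7 were labelled untreated. Alox15 encodes arachidonate 15-lipoxygenase, which adds oxygen to polyunsaturated fatty acids. PolyA RNA was read as 3′ tags with a QuantSeq kit, so a count stands for a transcript end and levels are compared here between libraries and never between genes. The labels give no strain, age, tissue of origin, sort or form of the deletion. They also do not say that replicates were separate animals, and every p-value here is set by the spread from library to library, which may be technical.

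The libraries held 3228292 to 5657192 counts. Alox15 had counts of 1, 0 and 0 in knockouts 1, 2 and 3, against 0 in all 4 wild-type libraries, so it does not check the labels. Knockouts 2 and 3 stood apart from the other 5 libraries. Their sample descriptions had another stem, and Xist, the RNA of the inactive X chromosome, read 382 and 102 CPM (counts scaled to a common library size by TMM) there, against 0.896 to 6.11 CPM in wild type and 1.75 CPM in knockout 1. The Y-linked gene Ddx3y read 0.306 and 0.195 CPM in knockouts 2 and 3, against 19.3 to 108 CPM in wild type and 119 CPM in knockout 1, and Eif2s3y and Kdm5d had 0 counts in knockouts 2 and 3 alone. Sex-linked RNA therefore differed between the groups, and in knockouts 2 and 3 its part cannot be told apart from that of the description stem. Knockout 3 and wild type 2 had the least RNA of mature neutrophils. The 14 markers of that list had summed levels of 31448, 20362 and 2974 CPM in knockouts 1, 2 and 3, against 39842, 3912, 15761 and 16825 CPM in wild types 1 to 4. In such bulk samples fewer cells of a type and less RNA per cell cannot be told apart. Defining markers of mature neutrophils were present in every library, which goes with the granulocyte label, and so were all 16 markers of monocytes and macrophages.

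Sequences that bear on how 3 of the polyamine genes are known to be controlled are given first. Antizyme, the product of Oaz1, is made only when ribosomes slip forward by a base at a stop codon, a step that polyamines favour. The site is read here from the GENCODE M21 transcript Oaz1-206 (plus strand of chromosome 10, GRCm38), with the last sense codon and the in-frame stop in capitals.
Oaz1: ggggcctcggtggtgcTCCTGAtgtccctc
The same site stood in 2 of the 7 annotated Oaz1 transcripts, Oaz1-205 and Oaz1-206. In 3 others it was written without the T that opens the stop.

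For Odc1 and Sat1, whose products stand at the entry and the exit of the pathway, the 120 bases before the RefSeq start (GRCm38.p6) are shown, because they were high in different libraries. Capitals mark GC boxes, the letters GGGCGG on either strand, which Sp1-type factors bind. The Odc1 stretch is chr12:17544753-17544872 on the plus strand and the Sat1 stretch is chrX:155216450-155216569, written along the minus strand. In GENCODE, Odc1 starts at 17544794, which is inside its stretch. The bases from there on, the GC box at -15 among them, lie within the annotated gene.
Odc1: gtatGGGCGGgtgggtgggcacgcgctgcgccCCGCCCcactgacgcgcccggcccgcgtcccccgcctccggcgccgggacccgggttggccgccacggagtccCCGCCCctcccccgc
Sat1: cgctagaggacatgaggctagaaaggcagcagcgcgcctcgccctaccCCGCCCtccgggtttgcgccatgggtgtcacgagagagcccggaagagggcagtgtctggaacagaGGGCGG
Over the full 250 bases searched, Odc1 had 4 GC boxes, at 238, 116, 88 and 15 bases before the start (-238, -116, -88 and -15), and Sat1 had 2, at -72 and -6. The E-box CACGTG, which Myc can bind, was in neither window, and of the 4 members in the promoter table (Oaz1, Odc1, Sat1 and Sms) it stood only in 1 of the Sms windows, at -196. GC boxes occurred in 32.7% and this E-box in 6.02% of 32851 RefSeq windows of the same length, so a GC box is common. A match describes letters and is neither a bound site nor a cause.

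No member passed the test between genotypes. With edgeR's quasi-likelihood test and Benjamini-Hochberg adjustment, 0 of 8 tested members and 0 of 12506 genes (0%) reached an adjusted p under 0.05, and the adjusted p of each tested member was 0.99995. By the unadjusted p, 1 member (Arg1) lay under 0.05, beside 154 genes (1.23%) of all tested. DESeq2 called 1 gene, the pseudogene Impdh2-ps, and limma-voom 0. Their counts at an unadjusted p under 0.05 were 213 genes by DESeq2 and 534 by limma-voom. In no member did the knockout and wild-type libraries separate. Over all genes tested, 196 genes (1.57%) had all knockouts above and 196 genes (1.57%) all knockouts below wild type. With shares this small, 0 of 8 tested members does not set the members apart from other genes. Of the 8 tested members, 5 had a positive and 3 a negative log2 fold change, with a median of 0.05, beside 0.01 over all genes tested.

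**Figure D1:**
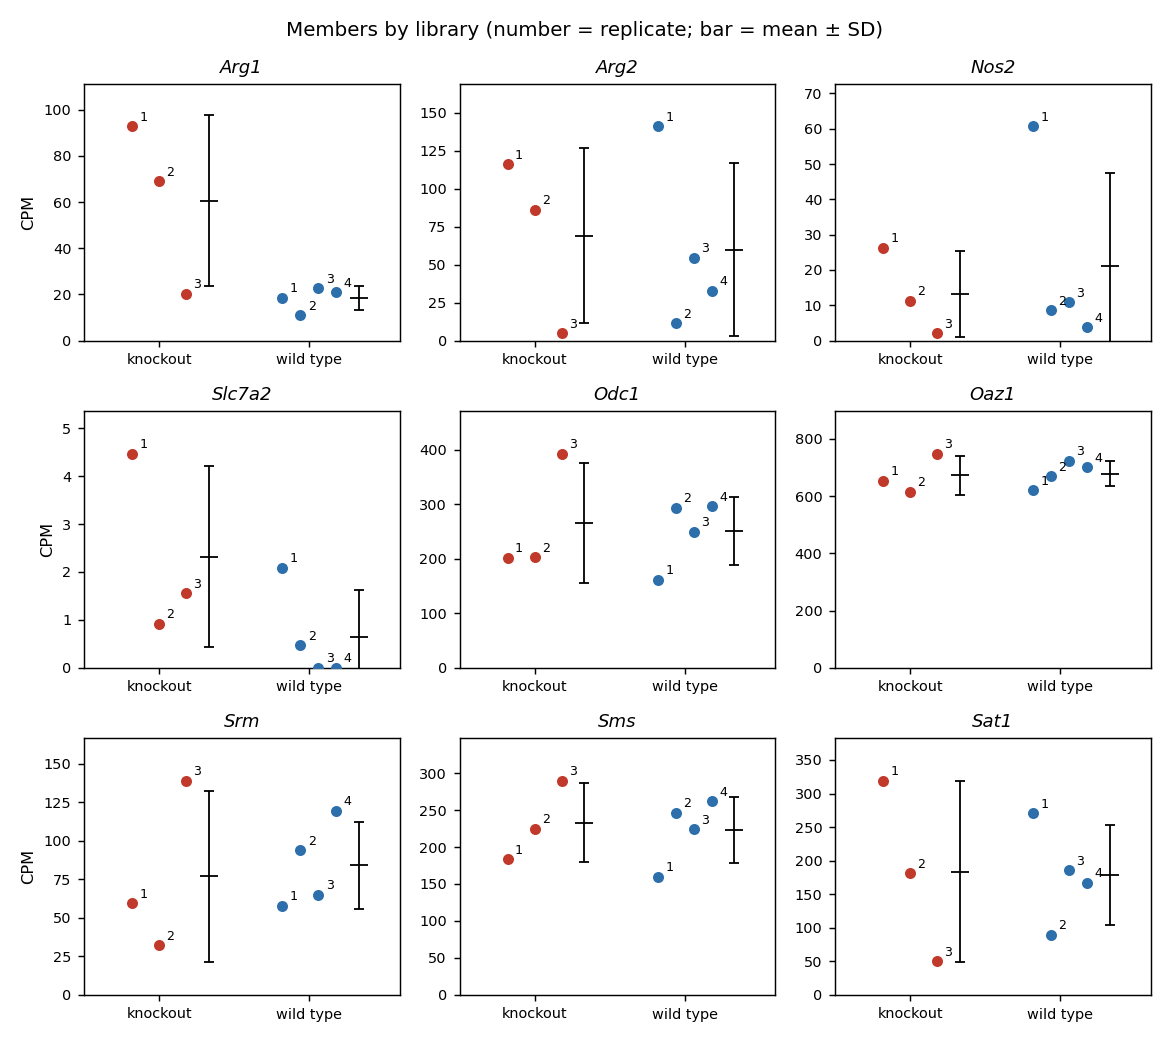
Level of each of the 9 members in CPM (vertical axes, from 0) in the 3 knockout (red, left) and 4 wild-type libraries (blue, right); numbers name the replicate and bars give the mean ± SD. Arg1 is at 92.7 and 68.9 CPM in knockouts 1 and 2 and at 20.3 CPM in knockout 3, against 10.96 to 22.6 CPM in wild type, while Oaz1 lies between 616 and 749 CPM in all 7 libraries.

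Arg1 (ENSMUSG00000019987, chromosome 10, 24915221 to 24927484, minus strand), the cytosolic arginase, had the largest nominal difference of the tested members. Its level was 92.7, 68.9 and 20.3 CPM in knockouts 1, 2 and 3, against 18.5, 10.96, 22.6 and 20.9 CPM in wild types 1 to 4. Knockouts 1 and 2 stood above every wild-type library, and knockout 3 lay inside the wild-type range. The mean was 60.6 ± 36.9 CPM in knockouts (SD, n = 3) and 18.3 ± 5.15 CPM in wild type (SD, n = 4). The fitted log2 fold change was 1.73 ± 0.49 (SE), with a 95% interval of 0.63 to 2.83, an unadjusted p of 0.00583 and an adjusted p of 0.99995 by edgeR, so it was not called. Under all 18 other settings it was positive with an unadjusted p under 0.05, and under none did the adjusted p pass, the lowest being 0.524 and the highest 1.

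RNA of monocytes and macrophages, which can also express Arg1, moved in the same libraries. The 16 markers of that list summed to 1910, 1020 and 366 CPM in knockouts 1, 2 and 3, against 762, 285, 670 and 794 CPM in wild types 1 to 4, and none of the 16 was at 0 in any library. All 16 had a positive log2 fold change, with a median of 0.86, beside 51.4% positive over all genes tested. Of the 16, 2 had an unadjusted p under 0.05 by edgeR, beside 1.23% of all genes tested, and none was called. Apoe, one of those markers, was also among the 5 genes whose profile was most like that of Arg1. With the score of the list (its mean log2 CPM) as a covariate, the Arg1 log2 fold change was 1.00 ± 0.31 (SE), and with the stem of the description as a covariate it was 2.35 ± 0.60 (SE). The part of these cells in the Arg1 values was not tested beyond that fit.

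Genes that mark alternative activation, a state in which macrophages carry Arg1, were also examined. Of 8 tested, 7 had a positive log2 fold change, beside 51.4% of all genes tested, and none was called. Chil3, which encodes the chitinase-like protein Ym1, had the largest log2 fold change of the 8, at 1.90. It read 32.5, 93.1 and 13.05 CPM in knockouts, against 40.9, 1.10, 3.58 and 4.77 CPM in wild type. Wild type 1 was within the knockout range for Chil3 and the other 3 wild-type libraries were below it. Il1rn was the 1 tested gene with a negative log2 fold change, -0.18. It read 350, 335 and 91.1 CPM in knockouts, against 694, 71.7, 230 and 176 CPM in wild type. The 12 genes of the list summed to 497, 470 and 127 CPM in knockouts, against 762, 99.0, 300 and 226 CPM in wild type. Il1rn made up most of this sum in every library, so the sum mainly shows that gene and not the list. Ccl17 had no count in any library.

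Arg2 (ENSMUSG00000021125, chromosome 12, 79130777 to 79156301, plus strand), the mitochondrial arginase, varied far more between libraries than between genotypes. It read 116, 86.1 and 4.87 CPM in knockouts 1, 2 and 3, against 141, 11.3, 54.6 and 32.8 CPM in wild types 1 to 4. The highest library was 29.0 times the lowest, and both groups spanned most of that range. The log2 fold change was 0.21 ± 0.99 (SE), with a 95% interval of -2.04 to 2.45. Arg2 shares bases with the antisense gene Gm48780 and with Vti1b on the other strand, and with no strand setting known for the counts, part of them could be theirs.

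The 2 arginases did not keep a fixed ratio. Of all arginase counts, Arg1 made up 44.4% (Wilson 95% interval 41.5 to 47.4) in knockout 1, 44.5% (40.2 to 48.8) in knockout 2 and 80.6% (73.0 to 86.5) in knockout 3. In wild types 1 to 4 its share was 11.6% (9.16 to 14.6), 49.3% (41.2 to 57.4), 29.3% (25.003 to 34.0) and 38.9% (32.5 to 45.8). Knockout 3 had the highest share and the lowest Arg2, and the groups overlapped through wild type 2. The share is one of tags, which need not equal the share of transcripts or of protein.

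**Figure D2:**
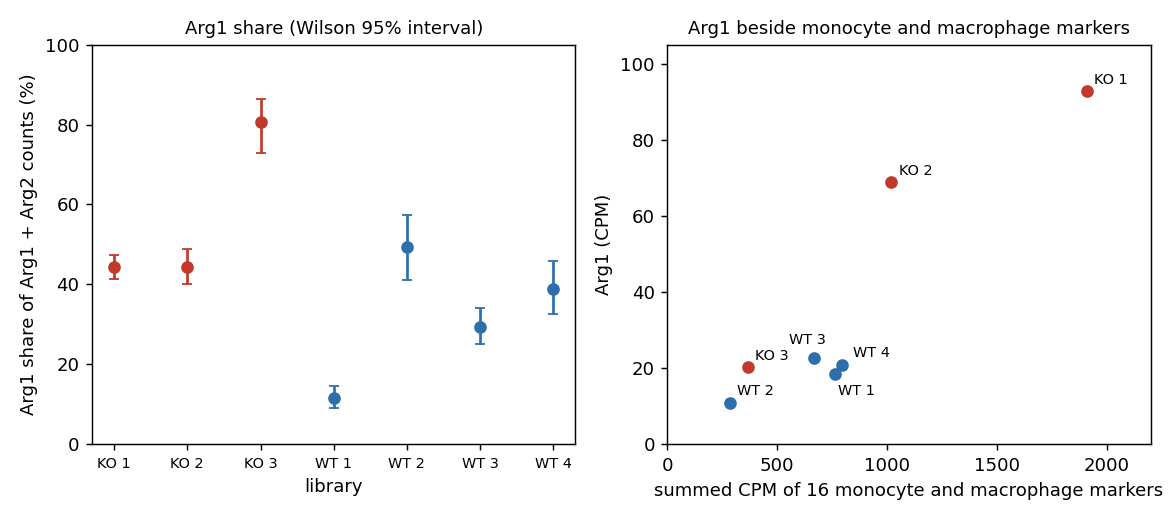
Left, Arg1 counts as a percentage of Arg1 plus Arg2 counts in each library, with Wilson 95% intervals, from 11.6% in wild type 1 to 80.6% in knockout 3. Right, Arg1 level (CPM) against the summed level of 16 monocyte and macrophage markers (CPM), knockouts in red and wild types in blue; knockouts 1 and 2 are highest on both axes.

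Nos2 (ENSMUSG00000020826, chromosome 11, 78920787 to 78960254, plus strand), which competes with arginase for arginine, had no consistent side. Its level was 26.2, 11.3 and 2.14 CPM in knockouts 1, 2 and 3, against 60.7, 8.61, 10.9 and 3.71 CPM in wild types 1 to 4. Wild type 1 stood far above the other wild-type libraries, which lay within the knockout range. The mean was 13.2 ± 12.2 CPM in knockouts (SD, n = 3) and 21.0 ± 26.6 CPM in wild type (SD, n = 4), and the log2 fold change of -0.65 ± 1.04 (SE) had a 95% interval of -3.005 to 1.70. Without wild type 1 the fold change was 0.72, with the opposite sign.

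Slc7a2 (ENSMUSG00000031596, chromosome 8, 40862396 to 40922308, plus strand), a cationic amino acid carrier that supplies arginine to activated macrophages, was close to the detection limit. It had 23, 3 and 8 counts in knockouts 1, 2 and 3, against 7, 3, 0 and 0 in wild types 1 to 4. Over the group this was 34 of 13826608 counts in knockouts, or 2.46 CPM of the raw totals (exact Poisson 95% interval 1.70 to 3.44), against 10 of 18152398, or 0.551 CPM (0.264 to 1.01), in wild type. Knockout 1 gave most of the knockout counts, and the ranges of single libraries overlapped. The intervals cover counting error only. Fitted with no filter on low counts, the log2 fold change was 1.83 with an unadjusted p of 0.309 by edgeR.

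Odc1 (ENSMUSG00000011179, chromosome 12, 17544794 to 17551505, plus strand), the rate-limiting decarboxylase of polyamine synthesis, read 202, 203 and 393 CPM in knockouts 1, 2 and 3, against 162, 294, 250 and 297 CPM in wild types 1 to 4. Knockout 3 was the highest library and wild type 1 the lowest, and the other 2 knockouts lay within the wild-type range. The log2 fold change was 0.09 ± 0.35 (SE), with a 95% interval of -0.70 to 0.87.

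The synthases that follow had the same order of high libraries. Srm (ENSMUSG00000006442, chromosome 4, 148591503 to 148594993), which makes spermidine, read 59.7, 32.2 and 139 CPM in knockouts, against 58.0, 93.8, 65.2 and 120 CPM in wild type. Sms (ENSMUSG00000071708, X chromosome, 157443855 to 157492287), which makes spermine, read 184, 225 and 290 CPM in knockouts, against 160, 246, 224 and 262 CPM in wild type. Knockout 3, wild type 4 and wild type 2 were the 3 highest libraries for Odc1, Srm and Sms alike, and in each gene both groups overlapped. The log2 fold change was -0.13 ± 0.48 (SE) for Srm and 0.06 ± 0.29 (SE) for Sms.

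Oaz1 (ENSMUSG00000035242, chromosome 10, 80826656 to 80829290, plus strand), whose antizyme binds ornithine decarboxylase and sends it to the proteasome, was the steadiest member. It read 655, 616 and 749 CPM in knockouts, against 621, 671, 724 and 700 CPM in wild type, and the highest library was 1.22 times the lowest. The log2 fold change was -0.01 ± 0.27 (SE), with a 95% interval of -0.62 to 0.59, and these RNA levels do not show how often ribosomes shift frame at the printed site. The processed pseudogenes Oaz1-ps and Sms-ps had at most 24 and 15 counts in a library, so few reads were given to them, though reads that match a gene and its copy remain uncertain.

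Sat1 (ENSMUSG00000025283, X chromosome, 155213132 to 155216449, minus strand), the acetyltransferase that marks spermidine and spermine for export and breakdown, read 319, 181 and 50.05 CPM in knockouts 1, 2 and 3, against 270, 89.9, 186 and 167 CPM in wild types 1 to 4. Knockout 1 was the highest library and knockout 3 the lowest, so the knockouts enclosed the whole wild-type range. Its log2 fold change was 0.04 ± 0.58 (SE), with a 95% interval of -1.26 to 1.35. Of the counts of Sat1 and Odc1 together, Sat1 made up 61.2%, 47.1% and 11.3% in knockouts 1, 2 and 3, against 62.5%, 23.4%, 42.6% and 36.1% in wild types 1 to 4. Sms and Sat1 are X-linked. The libraries with high Xist, knockouts 2 and 3, read 225 and 290 CPM for Sms and 181 and 50.05 CPM for Sat1. The part of sex-linked differences in these values was not tested.

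The members thus fell on both sides of a difference that cuts across genotype. Arg2 and Sat1 were lower in knockout 3 and wild type 2 than in the other 5 libraries, a pattern that 2011 tested genes (16.1%) shared. Odc1, Srm and Sms were higher in knockout 3, wild type 4 and wild type 2 than in the other 4, as were 1003 genes (8.02%). Both patterns were described after the values were seen and carry no test. Beside the first stands the mature neutrophil score, at 6.12 in knockout 3 and 6.56 in wild type 2, against 8.40 to 9.86 in the other 5 libraries. The monocyte and macrophage score had the same split, at 3.75 in knockout 3 and 3.72 in wild type 2, against 4.63 to 6.46 in the other 5. Beside the second stand the summed levels of the 12 markers of T and NK cells, which were 389, 507 and 1027 CPM in knockouts, against 321, 707, 516 and 699 CPM in wild type. The summed levels of the 14 proliferation genes were also highest in knockout 3, wild type 2 and wild type 4. They were 1762, 2541 and 3131 CPM in knockouts, against 1424, 3023, 2514 and 2960 CPM in wild type. The score of these genes (mean log2 CPM) did not follow that pattern, at 6.06, 6.39 and 6.40 in knockouts, against 5.38, 6.60, 6.42 and 6.57 in wild type. The part of other cells in these values was not tested.

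**Figure D3:**
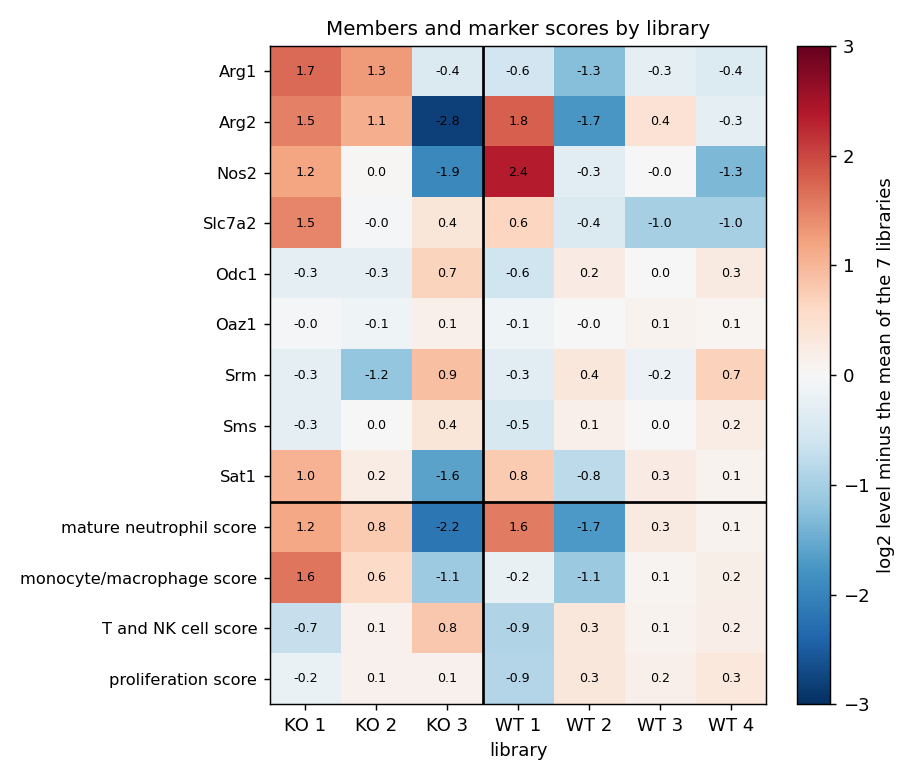
Log2 level of each member (with 1 CPM added) and of the scores of 4 marker lists (mean log2 CPM), as the difference from the mean of the 7 libraries; knockouts are left of the black line and wild types right of it. Arg2 and the mature neutrophil score are lowest in knockout 3 (-2.8 and -2.2) and in wild type 2 (-1.7 and -1.7), while Odc1 is highest in knockout 3 (0.7).

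The genes most like 3 members in profile were taken by Pearson's r of log2 CPM over the 7 libraries among 8332 genes, as a description that rests on few libraries sharing the differences above. Nearest to Arg1 were Sap18 (r = 0.966), Tmem14c (0.961), Twf2 (0.957), Nudt18 (0.956) and Apoe (0.956). Apoe, a lipid carrier made by macrophages, read 360, 224 and 106 CPM in knockouts, against 116, 61.5, 127 and 154 CPM in wild type. Nearest to Nos2 were Trappc10 (0.988), Atp7a (0.980), Tom1 (0.977), Idua (0.977) and Ptgs2os2 (0.975). Atp7a, a copper pump, read 112, 65.2 and 20.4 CPM in knockouts, against 153, 46.8, 61.6 and 39.7 CPM in wild type, with wild type 1 again the highest. Nearest to Odc1 were Ilvbl (0.995), Cdk1 (0.995), Hmgn5 (0.994), Stmn1 (0.988) and Lat (0.988). Of these, Cdk1 drives entry into mitosis and Lat is an adaptor of T cell receptor signalling; Cdk1 read 129, 116 and 393 CPM in knockouts, against 85.5, 245, 171 and 263 CPM in wild type.

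Around the members, 7 lists of 77 pathway genes were read, of which 70 had counts and 56 could be tested. None was called by edgeR, and 2 had an unadjusted p under 0.05, beside 1.23% of all genes tested. Of the 56, 27 had a positive and 29 a negative log2 fold change, with a median of -0.04 beside 0.01 over all genes tested. The 2 with an unadjusted p under 0.05 were Amd1 and Amd2. Both encode S-adenosylmethionine decarboxylase, the enzyme that makes the aminopropyl donor used by the spermidine and spermine synthases.

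Amd1 (chromosome 10, 40287458 to 40302186, minus strand) read 209, 173 and 150 CPM in knockouts 1, 2 and 3, against 240, 416, 316 and 585 CPM in wild types 1 to 4. Every knockout was below every wild-type library, as for 196 (1.57%) of all genes tested, though knockout 1 and wild type 1 were close. The log2 fold change was -1.13 ± 0.36 (SE), with an unadjusted p of 0.0105 and an adjusted p of 0.99995 by edgeR. Amd2 (chromosome 10, 35708675 to 35711892) read 75.8, 35.5 and 83.4 CPM in knockouts, against 61.6, 216, 164 and 320 CPM in wild type, and overlapped through wild type 1. Its log2 fold change was -1.55 ± 0.54 (SE), with an unadjusted p of 0.0176 by edgeR and the same adjusted p. The 2 genes are near-identical in sequence, so how their reads were split is uncertain; summed, they read 285, 209 and 234 CPM in knockouts, against 302, 632, 480 and 905 CPM in wild type. Of the 18 other settings, 16 gave Amd1 and 14 gave Amd2 an unadjusted p under 0.05, and with the stem of the description as a covariate these were 0.151 and 0.170. For Amd2 it was also above 0.05 without knockout 2 (0.0643) or without wild type 4 (0.0573).

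**Figure D4:**
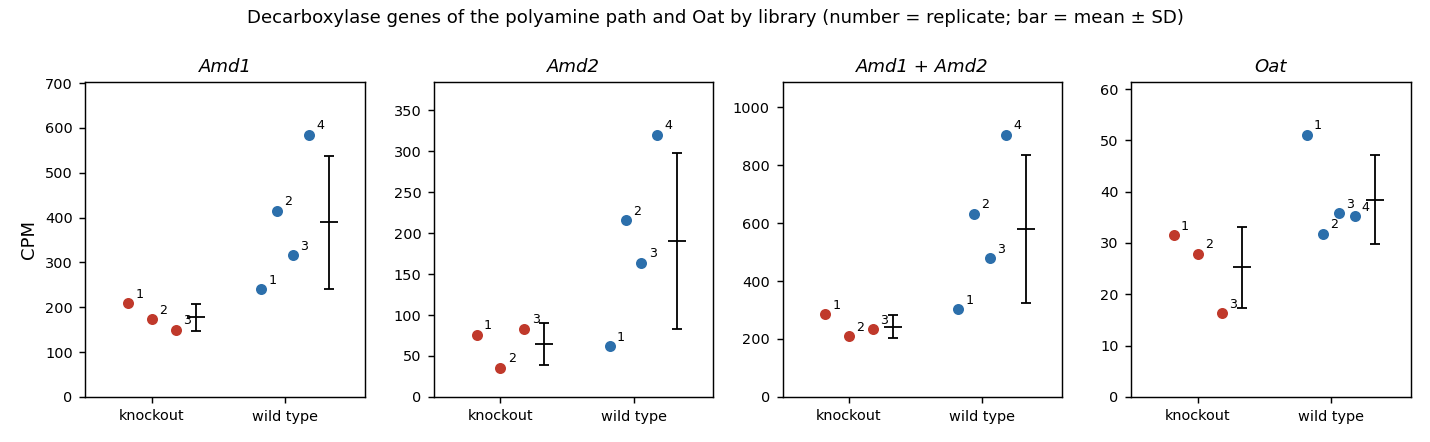
Levels (CPM, axes from 0) of Amd1, Amd2, their sum and Oat in knockout (red, left) and wild-type libraries (blue, right), with the mean ± SD. The summed decarboxylase level is 209 to 285 CPM in knockouts and 302 to 905 CPM in wild type, and for Oat the groups nearly meet at 31.5 CPM in knockout 1 and 31.8 CPM in wild type 2.

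Among the other polyamine genes, 8 of 13 were tested, with 5 positive and 3 negative log2 fold changes. Smox, the spermine oxidase, read 118, 76.0 and 35.2 CPM in knockouts, against 239, 25.2, 71.3 and 107 CPM in wild type. The antizyme inhibitor gene Azin1 was even, with 183, 213 and 143 CPM in knockouts, against 174, 158, 166 and 186 CPM in wild type. Its relative Azin2 had too few counts for the test: there were 25, 7 and 1 in knockouts, or 2.39 CPM over the group (exact Poisson 95% interval 1.64 to 3.35), against 0 of 18152398 counts in wild type, where a limit of 3 counts over the group is 0.165 CPM. Azin2 overlaps the antisense gene Gm15904, and most of its counts came from knockout 1. Paox, an oxidase of acetylated polyamines, had a log2 fold change of 0.71 ± 0.51 (SE).

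Ornithine can also be exchanged with proline and glutamate, and 7 of 8 genes of that list were tested, with 4 positive and 3 negative log2 fold changes and none called. Oat, the ornithine aminotransferase, read 31.5, 27.9 and 16.4 CPM in knockouts, against 51.1, 31.8, 35.8 and 35.2 CPM in wild type. All knockouts were below all wild types for Oat, as for 1.57% of all genes tested, though knockout 1 and wild type 2 nearly met. The log2 fold change of -0.61 ± 0.34 (SE) had an unadjusted p of 0.108 by edgeR. Aldh18a1, which makes the precursor of ornithine and proline from glutamate, read 5.05, 7.66 and 9.54 CPM in knockouts, against 6.57, 22.7, 19.5 and 15.4 CPM in wild type, with a log2 fold change of -1.11 ± 0.53 (SE). Wild type 1 alone lay within the knockout range. Aldh4a1, which turns the same intermediate into glutamate, had 0.67 ± 0.55 (SE).

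Of 16 genes of arginine transport and the urea cycle, 13 had counts and 8 were tested, 4 positive and 4 negative, none called. Slc7a1, the carrier of arginine found in most cells, read 170, 241 and 191 CPM in knockouts, against 135, 215, 146 and 135 CPM in wild type, with a log2 fold change of 0.35 ± 0.28 (SE). Its groups overlapped through wild type 2. The amino acid carriers Slc7a8 and Slc7a6 had log2 fold changes of 1.37 ± 1.15 and 0.49 ± 0.58 (SE). For Slc7a8 this rested on knockout 1, at 12.05 CPM. Knockouts 2 and 3, at 3.06 and 1.56 CPM, lay within the wild-type range of 0 to 3.58 CPM. Otc and Cps1, the mitochondrial urea cycle enzymes of liver, had 0 counts in all 7 libraries.

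For nitric oxide and its cofactor tetrahydrobiopterin, 12 of 13 genes had counts and 8 were tested, 3 positive and 5 negative, none called. Nos1, another nitric oxide synthase gene, read 45.1, 71.7 and 101 CPM in knockouts, against 53.5, 84.1, 87.2 and 99.0 CPM in wild type. Its log2 fold change was -0.16 ± 0.34 (SE), and it shares bases with the antisense gene Gm26995. Gch1, which opens tetrahydrobiopterin synthesis, read 30.5, 20.2 and 24.9 CPM in knockouts, against 38.2, 18.5, 17.9 and 30.4 CPM in wild type, with wild type 1 highest as for Nos2. Nosip, a partner of nitric oxide synthase, had a log2 fold change of 0.50 ± 0.38 (SE), Pcbd2 of -0.42 ± 0.37 (SE) and Pts, another enzyme of the cofactor path, of -0.44 ± 0.57 (SE).

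In methionine salvage, which recovers the by-product of both synthases, all 8 genes were tested, 3 positive and 5 negative. Mri1 had a log2 fold change of 0.51 ± 0.34 (SE), Got1 of 0.24 ± 0.26 (SE) and Adi1 of -0.41 ± 0.55 (SE). Spermidine is also used to make hypusine on the translation factor eIF5A. Eif5a, the gene of that factor, read 464, 457 and 645 CPM in knockouts, against 371, 632, 667 and 730 CPM in wild type, and the modifying enzymes Dohh and Dhps had log2 fold changes of 0.22 ± 0.52 and 0.07 ± 0.37 (SE). None of these genes was called.

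Receptors and factors that induce arginase or nitric oxide synthase gave 14 tested genes of 15, 6 positive and 8 negative, none called. Myc, which drives Odc1 in many cells, read 2.14, 6.13 and 4.87 CPM in knockouts, against 5.38, 10.2, 12.3 and 8.74 CPM in wild type, with a log2 fold change of -1.07 ± 0.60 (SE). Ifngr1, a chain of the interferon gamma receptor, read 304, 287 and 77.9 CPM in knockouts, against 216, 93.6, 153 and 59.3 CPM in wild type. Irf8 had a log2 fold change of 0.34 ± 0.31 (SE). Il4ra, Stat6, Stat3, Irf1, Cebpb, Ifngr2 and Ppard were, like Arg2 and Sat1, lower in knockout 3 and wild type 2 than in the other 5 libraries. Il4ra, the receptor chain through which interleukin 4 induces Arg1, read 214, 206 and 67.0 CPM in knockouts, against 426, 36.5, 136 and 152 CPM in wild type. The highest library was wild type 1 for Il4ra and knockout 1 for Arg1, and any relation between them was not tested.

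**Figure D5:**
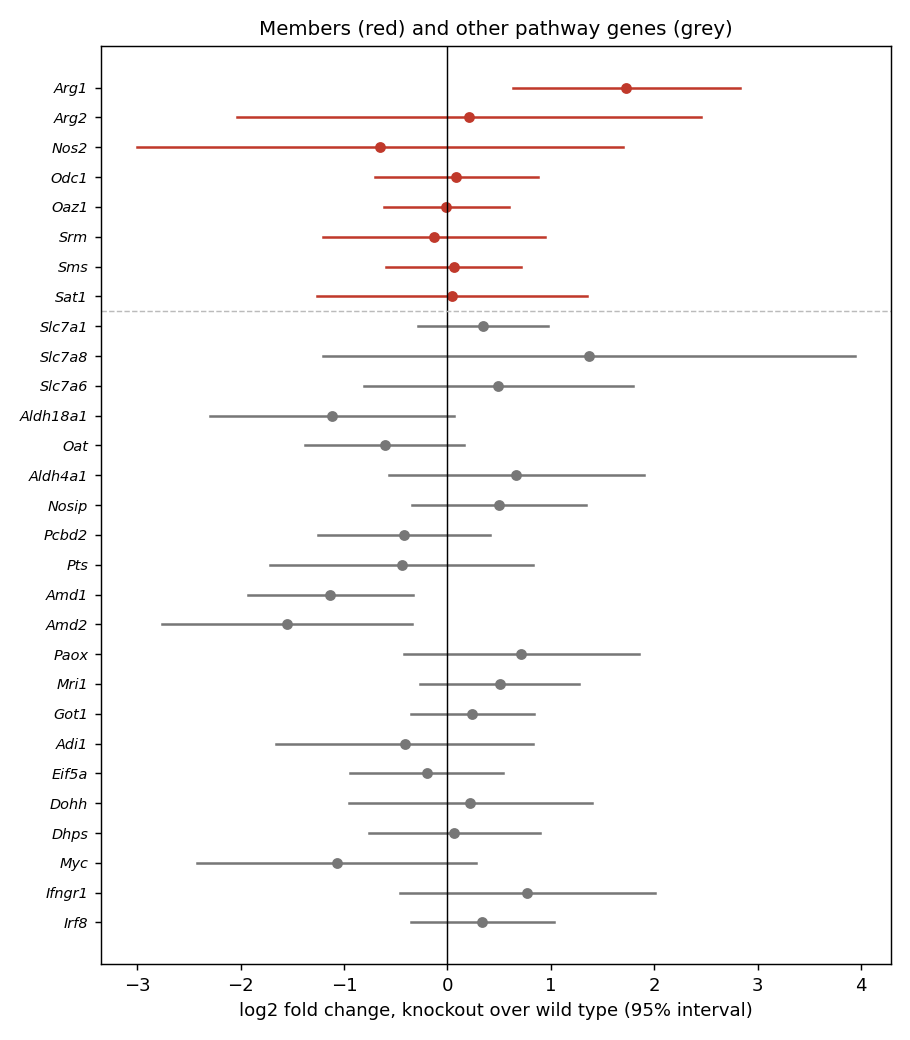
Log2 fold change of knockout over wild type with its 95% interval for the 8 tested members (red) and for the pathway genes nearest to the threshold in each list (grey). The intervals of Arg1 (0.63 to 2.83), Amd1 and Amd2 leave out 0 before any adjustment for the 12506 genes tested, and all others include it.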

How the data were processed

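The authors deposited whole-number counts per Ensembl mouse gene for 7 libraries in 1 table. RSEM 1.2.3, DESeq2 and the build mm10 appear in the submitters' processing notes without a role; RSEM estimates counts, so these may be rounded estimates, and no rounding was needed here. The strand setting, annotation release and treatment of reads with several matches are not given in the sources used here. Symbols, coordinates (1-based) and overlaps came from GENCODE M21 on GRCm38, the build of mm10; 51596 of 51789 genes matched a symbol. Promoter sequences came from RefSeq, where 4 of 9 members were found.

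Genes were filtered with filterByExpr, which kept 12506 genes and left out Slc7a2, scaled by TMM and tested with edgeR 4.0.16 (robust quasi-likelihood test, R 4.3.3), with Benjamini-Hochberg adjustment over all genes and a call at an adjusted p under 0.05. Fold changes are knockout over wild type. Log2 CPM carries a prior count of 2. Wilson and Poisson intervals cover counting error only, since no molecular identifiers are named, while intervals of fold changes come from the fit and hold the spread between libraries; 3 counts stood for 0.530 to 0.929 CPM in a library. Alternatives were DESeq2 1.42.0, limma-voom 3.58.1 with quality weights, other scaling, filters and covariates, a replicate block, and libraries left out.

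Named were all members, up to 3 genes of each pathway list with the smallest unadjusted p, and the 5 genes most like Arg1, Nos2 and Odc1 among genes whose log2 CPM averaged 3 or more. Smox, Azin1, Azin2, Nos1, Gch1, Il4ra, Chil3, Il1rn, Ddx3y, Eif2s3y, Kdm5d, Ccl17, Otc, Cps1, Impdh2-ps and the rules on which libraries were high or low were chosen after their values were seen. The members and lists were chosen with earlier results of these data known.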

Additional observations from a re-analysis of the deposited data

Results flagged for a closer look

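Nos2 in wild type 1 stood far from the other libraries of its group. It read 60.7 CPM there, against 8.61, 10.9 and 3.71 CPM in wild types 2 to 4, and its gap to the next library was 0.873 of the range of the group. The 9 members were each examined in this way in wild type and 1 was marked. Chance marks about 1 in 20 groups where values are normally distributed, which levels in CPM need not be. Wild type 1 also had the highest mature neutrophil sum, 39842 CPM, and its part in the Nos2 value was not tested.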

How the results depend on the processing

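Under the 18 alternatives no member and no pathway gene was called, and DESeq2 called 1 gene of all tested where the other 17 called 0. Whether the numbers of the replicates pair the libraries is not known. The deviations of same-numbered libraries had correlations of 0.349, -0.225 and -0.184. These cannot decide it, since libraries with different numbers also shared differences, with 0.470 for knockout 3 and wild type 2. With a replicate block 0 members were called and Arg1 was at 1.65. The unadjusted p by edgeR was then 0.0656 for Amd1 and 0.126 for Amd2, and 80 genes had an unadjusted p under 0.05. Several log2 fold changes turned sign, among them those of Nos2 (-0.65), Mri1 (0.51) and Pts (-0.44). With the replicate block they were -0.25 for Arg2, -0.17 for Sat1, 0.00097 for Oaz1 and -0.089 for Dhps. With the monocyte and macrophage score they were -1.56 for Arg2, -0.89 for Sat1 and 0.017 for Oaz1, and with the mature neutrophil score -0.12 for Sat1 and -0.026 for Dohh. With the description stem they were 0.33 for Nos2, -0.31 for Odc1, -0.28 for Sms, -0.60 for Dohh, -0.051 for Mri1 and 0.19 for Pts. With limma-voom they were 0.28 for Nos2, -0.21 for Odc1, -0.055 for Sms and -0.021 for Dohh. Without both wild type 2 and knockout 3 they were -0.27 for Odc1, -0.13 for Sms, -0.75 for Dohh and -0.012 for Dhps. Leaving out 1 library at a time gave -0.40 to 1.02 for Arg2, -1.65 to 0.72 for Nos2, -0.16 to 0.047 for Oaz1, -0.37 to 0.25 for Odc1, -0.63 to 0.44 for Sat1, -0.20 to 0.20 for Sms, -0.94 to 0.24 for Srm, -0.61 to 0.69 for Dohh and -0.084 to 0.26 for Dhps, against 1.28 to 2.09 for Arg1 and -1.33 to -0.89 for Amd1. The cause was not tested. Counts of at most 23 a library limit Slc7a2, and the spread between libraries limits the others.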
